A study of Mus musculus with 10 samples.

Results

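The genes examined here encode enzymes, carriers and regulators of mitochondrial fatty acid oxidation and ketone body metabolism, and their transcript levels were compared between Dp1Rhr and control hippocampus. The list named 33 genes, of which 31 were measured by a probe set annotated to a single gene, out of 19938 such genes in all. The genes were grouped by step into activation, carnitine shuttle, beta-oxidation, electron transfer, ketone bodies and regulators. The list was selected on this same contrast, with its results known, so the differences of its members are given as a description and carry no test. Acsl1 was not matched to a probe set, and Acsl3 was found only in a probe set shared with another gene. Neither of these acyl-CoA synthetases is described further.

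The mice were males of 16 weeks, with 5 Dp1Rhr and 5 control mice and 1 array per mouse. Dp1Rhr mice carry an extra copy of the chromosome 16 interval between Cbr1 and Fam3b in every cell from conception, and they model part of the gene content tripled in Down syndrome. The controls were wild type littermates labelled for the combined Dp1Rhr and Dp5Yah cross, without either duplication. The labels give C57BL/6N as the background of both groups, whereas the methods describe backcrossing towards C57BL/6J. RNA came from the full right and left hippocampus, so that a change in the number of cells of one type and a change in the transcript level per cell cannot be told apart. The values are log2 probe set signals, which carry no absolute zero, and differences were taken within a probe set.

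Fatty acids are activated to acyl-CoA in the cytosol or at the outer mitochondrial membrane, pass the inner membrane as acylcarnitines and are shortened by a repeated cycle of dehydrogenation, hydration, dehydrogenation and thiolysis. The first dehydrogenation hands its electrons to the electron transfer flavoprotein, and from there to the respiratory chain. In the adult brain, fatty acid oxidation takes place largely in astrocytes, and ketone bodies taken up from blood serve neurons and glia as a fuel when glucose is scarce.

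Promoter sequences from RefSeq (build GRCm38.p6) were available for 29 of the 33 genes and were searched, from 250 bases before to 50 bases after the start, for the nuclear receptor hexamer AGGTCA on both strands. The hexamer is the unit recognised by the fatty acid receptor PPAR alpha with its partner RXR and by the estrogen-related receptors. It was present in 6 of the 29 genes (20.7%), against 18.1% of all genes with a window. The extended estrogen-related receptor element TCAAGGTCA, which contains the hexamer, occurred in 1 of the 29 genes and in 0.466% of all genes with a window. A repeat of the hexamer with 1 base between the copies, the arrangement bound by PPAR and RXR, was found in 0 of the 29 genes and in 0.0481% of all genes with a window. A match is a description of the letters and does not show that a factor binds there. The stretches with a match upstream of 5 genes are printed first, 5′ to 3′ on the strand of the gene, with capitals marking the hexamer or the longer element; the sixth gene, Cpt1a, is named only. Acsl6 is the one gene with the longer element, and its second hexamer lies inside it.

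Acsl6, chr11:54303615-54303685, strand +: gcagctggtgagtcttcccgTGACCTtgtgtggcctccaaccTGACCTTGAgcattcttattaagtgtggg

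Cpt1c, chr7:44974972-44975017, strand -: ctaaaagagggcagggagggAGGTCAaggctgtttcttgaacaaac

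Acadvl, chr11:70015490-70015535, strand -: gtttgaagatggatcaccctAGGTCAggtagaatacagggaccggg

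Echs1, chr7:140116479-140116524, strand -: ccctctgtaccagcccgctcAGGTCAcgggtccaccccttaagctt

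Acadm, chr3:153944867-153944893, strand -: gTGACCTtcgggctccggtgacactgg

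Windows of 250 bases upstream of the annotated start are shown next for Hadh and Bdh2, the members with the widest gap between the groups and with the largest difference, and for Hadhb. The Hadhb window lies in the 272 bases that separate it from Hadha. These 2 genes encode the subunits of the trifunctional protein and are transcribed in opposite directions from chromosome 5, Hadha (30119423 to 30154980) on the minus strand and Hadhb (30155253 to 30184593) on the plus strand. None of the 3 windows holds the hexamer, so all letters are lower case.

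Hadh, chr3:131272102-131272351, strand -: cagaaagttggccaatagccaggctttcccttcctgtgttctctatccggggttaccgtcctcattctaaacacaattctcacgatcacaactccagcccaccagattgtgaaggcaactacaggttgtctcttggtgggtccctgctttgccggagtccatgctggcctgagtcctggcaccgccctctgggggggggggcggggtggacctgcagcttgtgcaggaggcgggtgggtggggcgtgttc

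Bdh2, chr3:135280971-135281220, strand +: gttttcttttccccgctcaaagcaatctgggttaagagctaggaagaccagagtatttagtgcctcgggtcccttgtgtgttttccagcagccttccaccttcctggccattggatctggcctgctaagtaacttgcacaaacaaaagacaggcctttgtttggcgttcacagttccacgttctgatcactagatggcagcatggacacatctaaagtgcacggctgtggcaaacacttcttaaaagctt

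Hadhb, chr5:30155003-30155252, strand +: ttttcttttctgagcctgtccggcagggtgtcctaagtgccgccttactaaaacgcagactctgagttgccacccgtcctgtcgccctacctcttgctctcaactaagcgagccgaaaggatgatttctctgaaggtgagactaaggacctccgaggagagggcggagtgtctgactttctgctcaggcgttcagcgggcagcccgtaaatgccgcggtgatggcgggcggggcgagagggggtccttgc

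The Hadhb window held 17 CpG dinucleotides at a GC content of 58.8%, that of Hadh 8 at 59.6% and that of Bdh2 5 at 48%. Over the same 250 bases upstream, the median of all windows was 6 CpG dinucleotides and a GC content of 52.4%.

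The arrays correlated with each other at 0.996 to 0.998. All 8 checked genes of the duplicated interval rose, among them Dyrk1a (log2 difference 0.27 ± 0.03 SE, limma adjusted p = 0.011), and their mean signal lay between 9.629 and 9.701 in control and between 9.997 and 10.055 in Dp1Rhr. These 8 are a chosen part of the interval and do not describe all of it. The study reported dosage compensation for part of the trisomic genes. No measured member of the metabolic list lies in that interval, although Bdh1 is on the same chromosome. Markers of hippocampal neurons were present at similar levels, with list means from 11.76 to 11.83 over all 10 arrays. Of these 9 markers, 3 differed above 0 and 6 below. For 1 of them, Camk2a at -0.03, every Dp1Rhr array lay below every control array, where 1.70% of all genes did. Control mice 2 and 3 stood apart in markers of the choroid plexus, the epithelium that secretes cerebrospinal fluid. The mean of 14 of 16 such markers was 6.85 and 7.05 in these arrays, against 8.35 to 9.01 in the other controls and 8.54 to 9.42 in Dp1Rhr, and Ttr was at 9.53 and 9.83 in them. Results are therefore also given without control 2 and control 3.

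As a group, the 31 measured members had higher signals in Dp1Rhr. The median log2 difference was 0.10, with a range from -0.05 to 0.52, whereas the median over all 19938 genes was 0.00. Of the 31 members, 29 (93.5%) had a difference above 0, against 49.9% of all genes. Averaged over the members, the 5 control arrays were at 8.96 ± 0.04 (SD) and the 5 Dp1Rhr arrays at 9.08 ± 0.04 (SD). The array means lay between 8.901 and 9.004 in the controls and between 9.035 and 9.140 in Dp1Rhr, so that the groups did not overlap. Without control 2 and control 3 the median was 0.10 and 28 members were above 0. Differences reached 0.1 or more in 17 of the 31, and Acsl4 and Acsl5 were the 2 members below 0.

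The counts of members past a threshold are listed beside the share among all genes, and nothing is read from them because the list was chosen from this contrast. In limma, 2 members (Hadh and Bdh2) were past the adjusted threshold as higher, where 0.627% of all genes were, and 0 as lower, where 0.176% of all genes were. The count was 0 when control 2 and control 3 were left out together. It was also 0 without control 2, control 5, Dp1Rhr 1, Dp1Rhr 2 or Dp1Rhr 4 alone, 1 without control 3 (Hadh) and 3 without Dp1Rhr 5 (Hadh, Decr1 and Bdh2). It was 2 in the other fits, with Hadh joined by Decr1 without control 1, by Hadha without control 4 and by Etfb without Dp1Rhr 3. Hadh was thus past the threshold in 5 of 10 such fits and Bdh2 in 1 of 10. For 6 members every Dp1Rhr array lay above every control array, where 1.82% of all genes did, and for 0 members every Dp1Rhr array lay below, where 1.70% did. At an unadjusted p under 0.05 the counts were 19 higher and 0 lower, where 8.55% and 6.44% of all genes were. With FCROS, the rank method of the study as reimplemented here, 8 members were higher and 0 lower, where the method placed 3.40% and 1.99% of all genes.

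**Figure D1:**
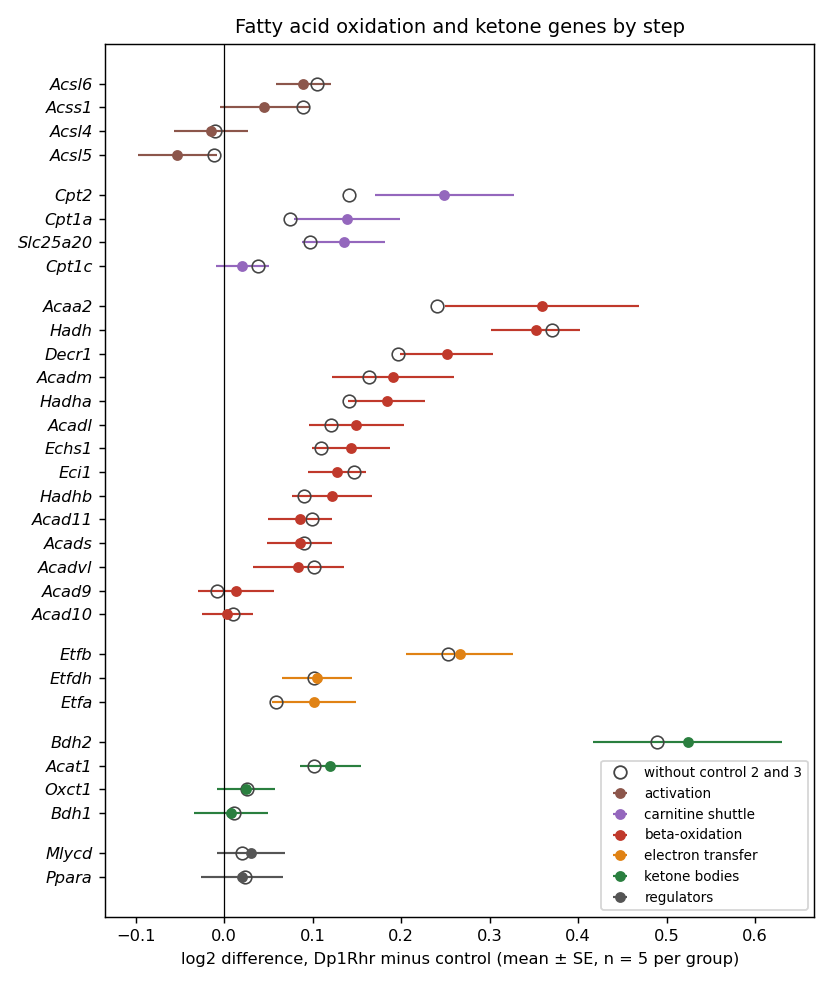
Log2 difference of each measured gene, Dp1Rhr minus control, grouped by step; filled points give the mean difference with its SE (n = 5 mice per group) and open circles the difference without control 2 and control 3. With all arrays, the 14 genes of beta-oxidation lie above 0 (13 of 14 without control 2 and control 3), Bdh2 has the highest value at 0.52, and Acsl4 and Acsl5 lie below 0.

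Activation genes differed little. The 4 measured genes had a median of 0.02, and 0.04 without control 2 and control 3, and their mean signal overlapped between the groups, at 9.98 to 10.07 in control and 10.01 to 10.05 in Dp1Rhr. The members of this step were split in direction. Acsl6, the acyl-CoA synthetase enriched in brain that favours polyunsaturated fatty acids, was at 10.13, 10.22, 10.17, 10.16 and 10.18 in control 1 to 5 and at 10.29, 10.33, 10.22, 10.23 and 10.25 in Dp1Rhr 1 to 5. Its difference was 0.09 ± 0.03 (SE), and control 2 and Dp1Rhr 3 came within rounding of each other at the boundary between the groups. Acss1, which makes acetyl-CoA from acetate in the mitochondrion, differed by 0.05 ± 0.05 (SE), with signals from 9.53 to 9.74 in control and from 9.60 to 9.80 in Dp1Rhr. The arachidonate-preferring synthetase Acsl4 differed by -0.02 ± 0.04 (SE) and the mitochondrial and reticular synthetase Acsl5 by -0.05 ± 0.05 (SE), both with overlapping groups.

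In the carnitine shuttle, Cpt1a, Cpt2 and Slc25a20 had differences of 0.1 or more, while the neuronal isoform Cpt1c was nearly level. The groups overlapped for each of the 4 genes. The 4 genes had a median of 0.14, and 0.09 without control 2 and control 3. Their mean signal ran from 8.90 to 9.08 in control and from 9.08 to 9.18 in Dp1Rhr, with a slight overlap. Cpt1a, the transferase of the outer membrane that commits acyl groups to oxidation, was at 9.40, 9.20, 9.08, 9.35 and 9.16 in control 1 to 5. In Dp1Rhr 1 to 5 it was at 9.44, 9.34, 9.39, 9.27 and 9.43, a difference of 0.14 ± 0.06 (SE). Control 1 and control 4 fell within the Dp1Rhr range, and without control 2 and control 3 the difference was 0.07. Cpt2, which turns acylcarnitine back into acyl-CoA on the matrix side, was at 7.92, 7.55, 7.77, 8.05 and 7.81 in control and at 8.18, 8.11, 7.999, 8.08 and 7.98 in Dp1Rhr. The difference was 0.25 ± 0.08 (SE), and 0.14 without control 2 and control 3, control 2 being the lowest array and control 4 lying inside the Dp1Rhr range. Slc25a20, the carnitine-acylcarnitine carrier between these transferases, differed by 0.13 ± 0.05 (SE), with signals from 7.94 to 8.08 in control and from 8.02 to 8.24 in Dp1Rhr. Cpt1c, the isoform of neurons that resides in the endoplasmic reticulum and has little transferase activity, differed by 0.02 ± 0.03 (SE).

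Beta-oxidation enzymes formed the largest step, and all 14 measured genes had differences above 0. Their median was 0.14. Without control 2 and control 3 it was 0.12, and 13 of the 14 were above 0, with Acad9 at -0.01. Averaged over the step, the 5 control arrays were at 8.76 ± 0.06 (SD) and the 5 Dp1Rhr arrays at 8.92 ± 0.05 (SD), with the highest control at 8.84 and the lowest Dp1Rhr array at 8.87.

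**Figure D2:**
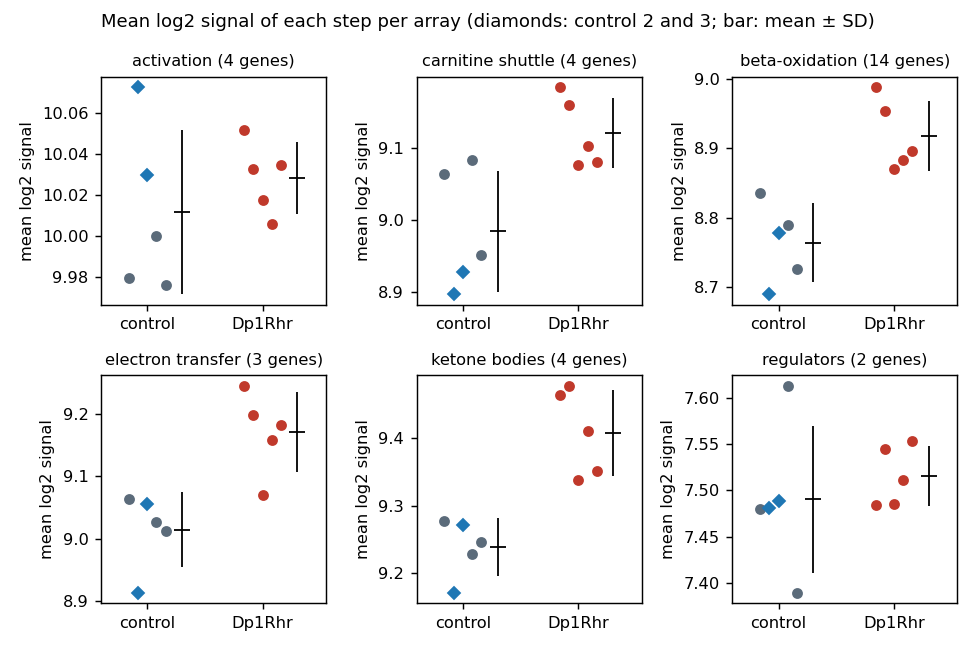
Mean log2 signal over the measured genes of each step in every array, with the group mean and SD beside the points (n = 5 mice per group); diamonds mark control 2 and control 3. The groups do not overlap for beta-oxidation, electron transfer and ketone bodies, and they overlap for activation, carnitine shuttle and regulators. For electron transfer the margin is narrow (highest control 9.063, lowest Dp1Rhr array 9.071), and for ketone bodies the groups overlap once Bdh2 is left out.

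Among the acyl-CoA dehydrogenases of the first oxidation, the enzymes for medium and long chains had the larger differences. Acadm, the medium-chain enzyme, was at 9.41, 9.17, 9.45, 9.36 and 9.36 in control and at 9.58, 9.66, 9.30, 9.61 and 9.57 in Dp1Rhr. The difference was 0.19 ± 0.07 (SE), and Dp1Rhr 3 lay inside the control range while the other Dp1Rhr arrays were above it. Acadl, the long-chain enzyme, was at 8.87, 8.65, 8.78, 8.85 and 8.64 in control and at 9.02, 8.94, 8.82, 8.86 and 8.91 in Dp1Rhr, a difference of 0.15 ± 0.05 (SE). Here Dp1Rhr 3 and Dp1Rhr 4 fell below control 1. The very-long-chain enzyme Acadvl and the short-chain enzyme Acads differed by 0.08 ± 0.05 and 0.09 ± 0.04 (SE), with overlapping groups in both. Acad11, a dehydrogenase of the same family, differed by 0.09 ± 0.04 (SE). Acad9, best known as an assembly factor of respiratory complex I, differed by 0.01 ± 0.04 (SE), and Acad10 by 0.00 ± 0.03 (SE). Acad10 was the 1 member that a filter at the 40th percentile of mean signal would remove.

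Among the enzymes of hydration, second oxidation and thiolysis, Hadh, Echs1 and Hadha had groups that did not overlap, with the widest gap for Hadh. The groups of the thiolases Hadhb and Acaa2 overlapped. Echs1, the enoyl-CoA hydratase for short chains, was at 9.47, 9.23, 9.46, 9.39 and 9.43 in control and at 9.58, 9.57, 9.55, 9.51 and 9.49 in Dp1Rhr. The difference was 0.14 ± 0.04 (SE), and the groups were apart by a narrow margin. Hadh, the hydroxyacyl-CoA dehydrogenase for medium and short chains (chromosome 3, 131233419 to 131272101), was at 10.04, 10.01, 10.03, 9.97 and 9.91 in control and at 10.46, 10.42, 10.33, 10.35 and 10.17 in Dp1Rhr. Its difference was 0.35 ± 0.05 (SE), a fold of 1.28. Dp1Rhr 5 was the lowest of its group and still above control 1, and without control 2 and control 3 the difference was 0.37. Leaving out each array in turn gave Hadh differences from 0.32 to 0.40.

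Hadha, the trifunctional protein subunit with hydratase and dehydrogenase activity on long chains, was at 10.46, 10.27, 10.38, 10.50 and 10.34 in control and at 10.62, 10.58, 10.57, 10.58 and 10.51 in Dp1Rhr. The difference was 0.18 ± 0.04 (SE), and control 4 and Dp1Rhr 5 were neighbours at the boundary between the groups. Hadhb, the thiolase subunit whose start faces that of Hadha across the window printed earlier, differed by 0.12 ± 0.05 (SE), and its second probe set differed by 0.12 as well. The Hadhb signals ran from 9.47 to 9.68 in control and from 9.62 to 9.75 in Dp1Rhr. Acaa2, the mitochondrial thiolase for medium chains, was at 9.63, 9.08, 9.14, 9.39 and 9.20 in control and at 9.76, 9.76, 9.54, 9.37 and 9.80 in Dp1Rhr. Its difference of 0.36 ± 0.11 (SE) came with the widest spread within groups of any member, and it was 0.24 without control 2 and control 3.

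Both auxiliary enzymes for unsaturated fatty acids in the list were higher in every Dp1Rhr array than in any control. Eci1, the isomerase that shifts double bonds, was at 8.97, 8.95, 8.96, 8.87 and 8.88 in control and at 9.08, 9.09, 9.07, 9.03 and 8.98 in Dp1Rhr, a difference of 0.13 ± 0.03 (SE). Control 1 and Dp1Rhr 5 nearly met. Decr1, the dienoyl-CoA reductase, was at 7.86, 7.67, 7.68, 7.79 and 7.77 in control and at 8.17, 8.03, 7.97, 7.95 and 7.92 in Dp1Rhr, a difference of 0.25 ± 0.05 (SE). Control 2 and control 3 were its lowest arrays, and without them the difference was 0.20. Outside the list, the isomerase Eci2, named after its value was seen, differed by 0.20 ± 0.05 (SE), with overlapping groups.

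**Figure D3:**
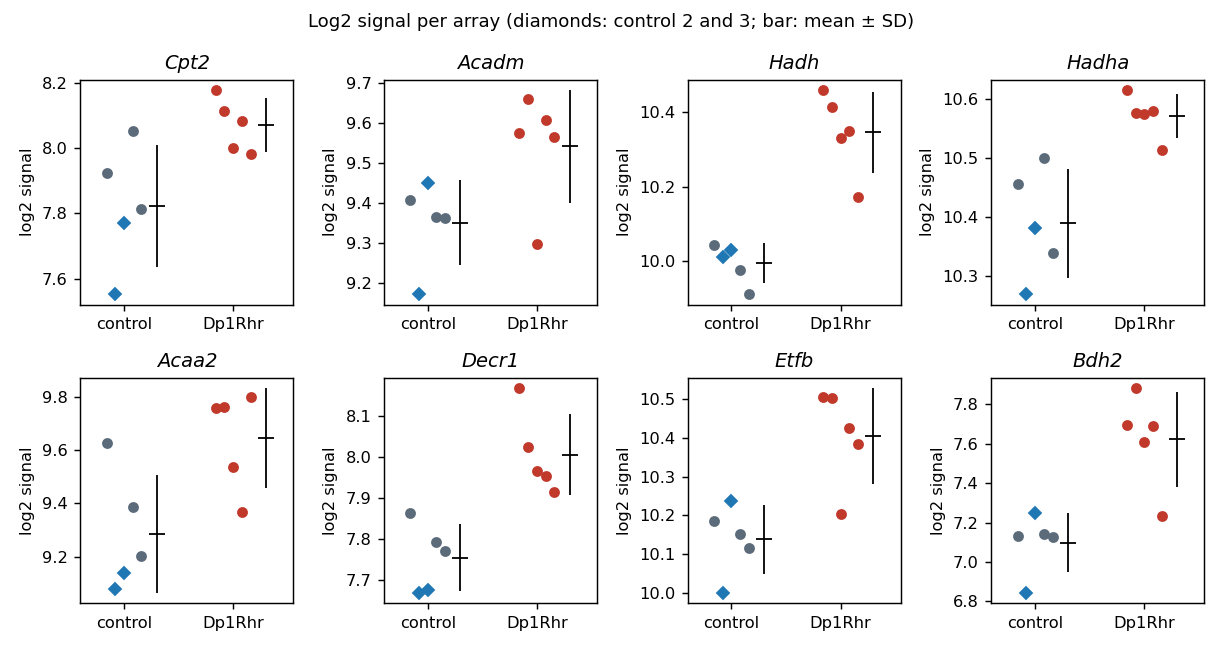
Log2 signal of 8 genes in each of the 5 control and 5 Dp1Rhr arrays, with the group mean and SD beside the points and diamonds for control 2 and control 3. The groups are apart for Hadh, Hadha and Decr1; 1 Dp1Rhr array lies inside the control range for Acadm, Etfb and Bdh2.

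Electron transfer genes all had differences above 0, with a median of 0.10. Their mean signal ran from 8.913 to 9.063 in control and from 9.071 to 9.246 in Dp1Rhr, a narrow margin. The groups overlapped for each of the 3 genes. Etfb, the beta subunit of the electron transfer flavoprotein, was at 10.19, 10.001, 10.24, 10.15 and 10.12 in control and at 10.51, 10.50, 10.20, 10.43 and 10.38 in Dp1Rhr. The difference was 0.27 ± 0.06 (SE), and Dp1Rhr 3 was again the array inside the control range, as for Acadm. After each group was centred on its mean, Etfb and Acadm correlated at 0.948 over the 10 arrays and Cpt2 and Hadha at 0.939, values that are descriptive because all genes share the same arrays. Etfa, the alpha subunit, differed by 0.10 ± 0.05 (SE), with signals from 8.16 to 8.33 in control and from 8.25 to 8.47 in Dp1Rhr. Etfdh, the oxidoreductase that passes the electrons to ubiquinone, was at 8.67, 8.58, 8.75, 8.62 and 8.73 in control and at 8.77, 8.78, 8.69, 8.80 and 8.84 in Dp1Rhr, a difference of 0.10 ± 0.04 (SE). Only Dp1Rhr 3 fell within the control range.

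In ketone body metabolism, Bdh2 stood apart from the enzymes that use ketone bodies in mitochondria. Bdh2, a cytosolic dehydrogenase named for hydroxybutyrate (chromosome 3, 135281221 to 135304426), was at 7.13, 6.84, 7.25, 7.14 and 7.12 in control and at 7.70, 7.88, 7.61, 7.69 and 7.23 in Dp1Rhr. Its difference was 0.52 ± 0.11 (SE), a fold of 1.44. Dp1Rhr 5 lay inside the control range, and the difference ran from 0.46 without Dp1Rhr 2 or control 2 to 0.62 without Dp1Rhr 5. Bdh1, the mitochondrial hydroxybutyrate dehydrogenase, was at 9.37, 9.38, 9.31, 9.29 and 9.35 in control and at 9.41, 9.34, 9.23, 9.32 and 9.45 in Dp1Rhr, a difference of 0.01 ± 0.04 (SE, 95% interval -0.08 to 0.10). Oxct1, the succinyl-CoA transferase that commits acetoacetate to use as fuel, was at 10.37, 10.27, 10.38, 10.27 and 10.31 in control and at 10.38, 10.37, 10.29, 10.33 and 10.35 in Dp1Rhr, a difference of 0.02 ± 0.03 (SE, 95% interval -0.05 to 0.10). For both genes the arrays of the groups were interleaved. Acat1, the thiolase that splits acetoacetyl-CoA, was at 10.23, 10.19, 10.14, 10.21 and 10.20 in control and at 10.37, 10.32, 10.22, 10.31 and 10.36 in Dp1Rhr. The difference was 0.12 ± 0.03 (SE), with Dp1Rhr 3 just inside the control range. The mean signal of the 4 ketone body genes lay at 9.17 to 9.28 in control and at 9.34 to 9.48 in Dp1Rhr, but the separation rested on Bdh2. Over the other 3 genes it lay at 9.92 to 9.99 in control and at 9.91 to 10.06 in Dp1Rhr, with a median difference of 0.02.

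Both regulators of the list were nearly level. Ppara, the nuclear receptor that fatty acids activate, was at 6.96, 7.02, 7.04, 7.19 and 6.91 in control and at 7.02, 7.10, 7.02, 7.04 and 7.03 in Dp1Rhr, a difference of 0.02 ± 0.05 (SE, 95% interval -0.08 to 0.12). All Dp1Rhr arrays lay inside the control range. Mlycd, which removes malonyl-CoA, the inhibitor of the outer transferase, differed by 0.03 ± 0.04 (SE), with signals from 7.87 to 8.04 in control and from 7.95 to 8.08 in Dp1Rhr.

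Marker genes of other cells also differed between the groups. Ependymal markers, which mark the ciliated cells lining the ventricles, had a median difference of 0.38 with 8 of 8 above 0, and 1 of them, the lipid transfer protein gene Pltp, rose (0.39 ± 0.07 SE, limma adjusted p = 0.032). Their list mean was 7.04 to 7.43 in control and 7.41 to 7.72 in Dp1Rhr, and the same arrays, control 2 and Dp1Rhr 5, were lowest in their group for these markers and for Bdh2. With the ependymal score of each array as a covariate, a setting chosen after the data were seen, the median over the members was 0.07, 24 members were above 0 and Bdh2 differed by 0.14. In this fit 12 members shifted by at least their SD within groups. The score ran from -1.70 to 0.01 in control and from -0.01 to 1.33 in Dp1Rhr, so the fit cannot tell score and genotype apart. With it, 0 of all genes were past the threshold, those of the duplicated interval included. All 14 choroid plexus markers were above 0, with a median of 0.89 and 0.30 without control 2 and control 3. With the choroid plexus score as covariate the median over the members was 0.08, 26 were above 0, and Cpt1a and Acaa2 differed by 0.03 and 0.12. All 6 markers of the habenula, an epithalamic nucleus below the dorsal hippocampus, were above 0 with a median of 0.56, and their mean was highest in Dp1Rhr 2 and 4 (8.96 and 9.17). With that score, also chosen after the data were seen, the median over the members was 0.11. The 8 oligodendrocyte markers had a median of 0.15 and list means of 11.08 to 11.22 in control and 11.20 to 11.39 in Dp1Rhr. Astrocyte markers had a median of 0.03 over 12 genes and list means of 10.78 to 10.92 in control and 10.80 to 10.86 in Dp1Rhr, but single markers differed both ways. The growth factor receptor gene Fgfr3 fell by 0.37 on the log2 scale (limma adjusted p = 0.047), Gja1 and Slc1a2 had every Dp1Rhr array below every control at -0.15 and -0.10, and S100b was at 0.30. The erythroid gene Alas2, the single measured blood marker, rose by 0.67 ± 0.11 (SE, limma adjusted p = 0.030). Median differences were 0.10 for the meninges with 7 of 7 above 0, 0.08 for microglia with 6 of 8 above 0 and 0.07 for endothelium with 5 of 7 above 0. The part of these cells in the differences of the metabolic genes was not tested.

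**Figure D4:**
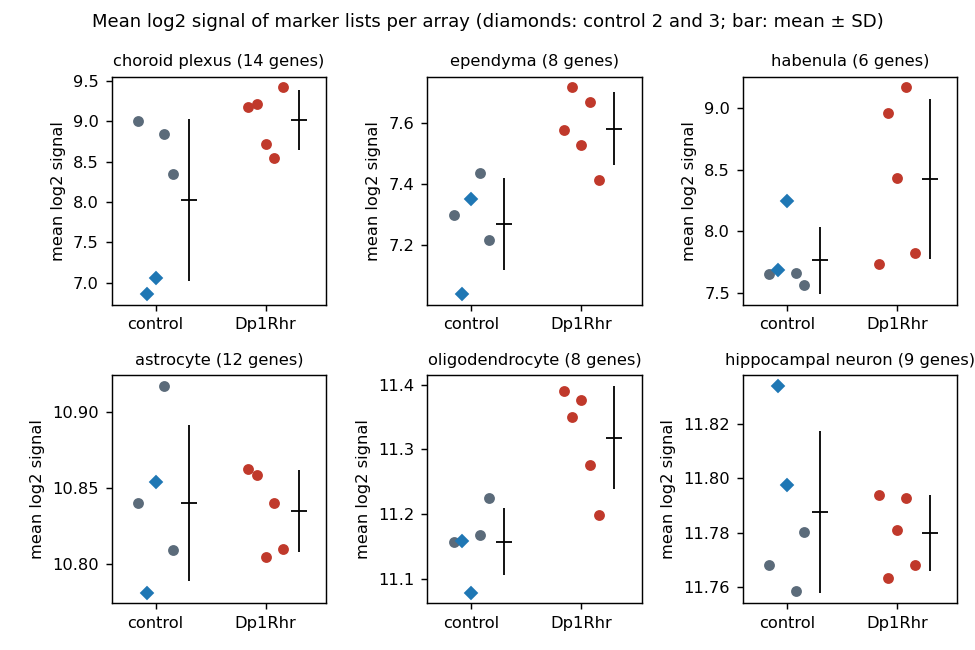
Mean log2 signal of 6 marker lists in every array, with the group mean and SD beside the points (n = 5 mice per group) and diamonds for control 2 and control 3. The diamonds lie lowest for choroid plexus, Dp1Rhr arrays lie higher for ependyma apart from a small overlap, and the astrocyte and neuron lists overlap fully.

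The rest of the pathway was followed through 83 further genes. They were listed by function, but with earlier results of these data known, so their counts are given as a description. Of the 83 genes, 74 were measured. Of these, 4 rose and 0 fell (limma, adjusted over all genes), where 0.627% of all genes rose and 0.176% fell, and the median difference was 0.01. At an unadjusted p under 0.05, 19 were higher and 2 lower, against 8.55% and 6.44% of all genes. FCROS called 12 higher and 1 lower, against 3.40% and 1.99% of all genes. For 6 of the 74 genes every Dp1Rhr array lay above every control array, where 1.82% of all genes did. For 1 gene, Acaca, every Dp1Rhr array lay below, where 1.70% of all genes did. A single set, the 19 measured genes of carnitine synthesis and accessory oxidation, resembled the members, with a median of 0.11, 16 genes above 0 and list means from 8.39 to 8.44 in control and from 8.46 to 8.59 in Dp1Rhr. In this set Aldh9a1, a dehydrogenase of carnitine synthesis, was at 9.30 to 9.46 in control and at 9.55 to 9.83 in Dp1Rhr, and it rose by 0.33 ± 0.05 (SE, adjusted p = 0.028). Etfbkmt, the methyltransferase that modifies the protein of Etfb, was at 6.06 to 6.31 in control and at 6.42 to 6.71 in Dp1Rhr. It rose by 0.42 ± 0.07 (SE, adjusted p = 0.028), while its second, dimmer probe set differed by -0.03. Acsf2, a mitochondrial acyl-CoA synthetase, was at 8.29 to 8.47 in control and at 8.55 to 8.71 in Dp1Rhr. It rose by 0.23 ± 0.04 (SE, adjusted p = 0.038), and its second probe set differed by 0.20. Of the 7 measured ketone genes outside the list, Slc16a6, a monocarboxylate transporter of ketone bodies, was at 7.11 to 7.32 in control and at 7.48 to 7.72 in Dp1Rhr. It rose by 0.35 ± 0.06 (SE, adjusted p = 0.027), while Bsg, the partner protein of such transporters, differed by 0.10. The other 5 of the 7 were below 0, and the median of the set was -0.03. None of the 4 calls held without control 2, control 5, Dp1Rhr 1 or Dp1Rhr 2. Those of Aldh9a1, Etfbkmt and Acsf2 were also lost without Dp1Rhr 4, and those of Etfbkmt and Acsf2 without control 3. The number that rose was 0 without control 2 and control 3 together, and with the choroid plexus, habenula or ependymal score as covariate.

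**Figure D5:**
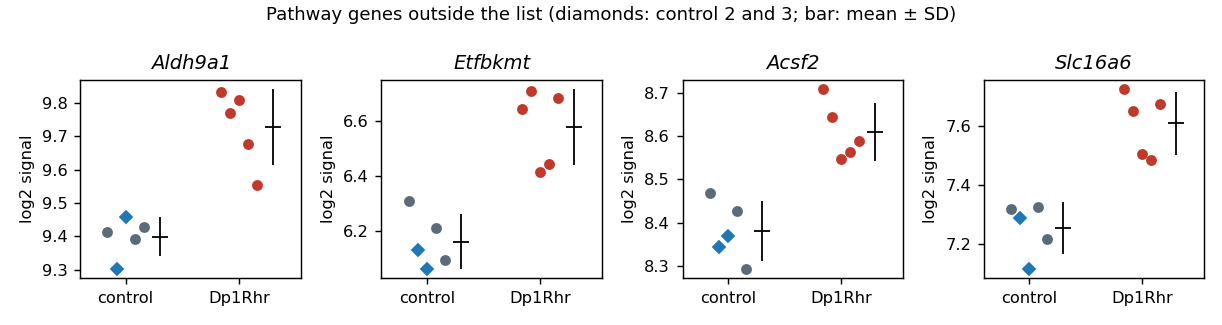
Log2 signal of the 4 pathway genes outside the list that rose, in each of the 5 control and 5 Dp1Rhr arrays, with the group mean and SD beside the points and diamonds for control 2 and control 3. All 4 genes, shown because they passed the threshold, have every Dp1Rhr array above every control array, where 1.82% of all genes do.

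The steps before and above oxidation had no gene past the threshold in either direction (limma), and few would be at the shares of 0.627% and 0.176% seen over all genes. At an unadjusted p under 0.05, uptake and binding had 2 genes higher and 0 lower, and droplets and lipolysis 3 and 0. The malonyl-CoA, AMPK and PPAR set had 3 higher and 2 lower, and PPAR targets 0 and 0. FCROS called 2 higher and 0 lower, 1 and 1, 2 and 0, and 0 and 0 in the same order. The shares over all genes, higher and lower, were 8.55% and 6.44% at the unadjusted p and 3.40% and 1.99% with FCROS. Fatty acid uptake and binding (12 genes) had a median of -0.02, and its genes with the smallest p were the transporter Cd36 (0.18 ± 0.04 SE, adjusted p = 0.073) and the acyl-CoA binding protein Dbi (0.23 ± 0.10 SE, adjusted p = 0.27). Cd36 had a low signal, at percentile 9.2 of mean signal, and the filter at the 40th percentile would remove it. For lipid droplets and lipolysis (9 genes) the median was 0.01, and the genes with the smallest p were Plin3 at 0.26 ± 0.07 and Abhd5 at 0.10 ± 0.04 (SE). The largest difference in size, named after its value was seen, was that of Plin4 at -0.28 ± 0.15 (SE). The malonyl-CoA, AMPK and PPAR set (17 genes) had a median of -0.03. Within it, the AMPK subunit Prkab1 differed by 0.23 ± 0.05 (SE, adjusted p = 0.053) and the cytosolic acetyl-CoA carboxylase Acaca, which makes malonyl-CoA, by -0.13 ± 0.03 (SE, adjusted p = 0.09). Acacb, the mitochondrial form of that carboxylase, named after its value was seen, differed the other way by 0.23 ± 0.06 (SE, adjusted p = 0.09). Classical PPAR targets (10 measured) had a median of 0.03, with Acot1 at 0.12 and Angptl4 at 0.05, and the filter at the 40th percentile of mean signal would remove 9 of the 10.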

How the data were processed

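The members and the gene lists were chosen with earlier results of these data known. The authors summarised the arrays (Affymetrix Mouse Gene 1.0 ST) with RMA and deposited log2 values. Per the submitters' processing notes, limma and the build mm10 were used as well. The version of RMA and the arrays that entered it together were not given in the sources used here. Because RMA equalises the distributions of the arrays, a shift common to the whole transcriptome is not visible in these values. Precision is set by the number of arrays.

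The deposited table has 35556 probe sets, of which 21789 were annotated with exactly 1 symbol, 1621 with several and 12146 with none. Where several probe sets named a gene (999 genes), the one with the highest mean signal was kept, leaving 19938 genes. Coordinates and promoters came from RefSeq GRCm38.p6. The contrast was fitted with lmFit and eBayes of limma 3.58.1 in R 4.3.3, two-sided, with Benjamini-Hochberg adjustment over all genes and a threshold of 0.05. The script was tested on simulated data. The methods of the study use FCROS, whose fixed tails call a near-fixed share of genes, so that FCROS served as an alternative (trim 0.25, f-value limits 0.025 and 0.975). It was reimplemented for this purpose, so its calls are not those of the study. The labels call the samples biological replicates.

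Values per array are given for members whose groups did not overlap or whose difference was at least 0.15 in size, and for 10 genes fixed as representatives of the steps, and ranges for the others. Outside the list, the pathway genes that passed were named, with the 2 genes per set with the smallest p. Settings varied were the replicate number as a block, single arrays left out, control 2 and 3 left out together, centring, a second quantile normalization, a filter on low signals, averaged probe sets, trended and robust eBayes, array weights, FCROS, and the score of choroid plexus, astrocyte, habenula or ependymal markers as covariate.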

Additional observations from a re-analysis of the deposited data

Results flagged for a closer look

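Of 88 gene and group combinations examined, 2 held an array whose gap to its nearest neighbour was large for the range of its group, and chance gives such a gap in about 1 in 20 groups. For Acadm, Dp1Rhr 3 was at 9.30, with the nearest Dp1Rhr array at 9.57 and the highest at 9.66. For Prkab1, control 3 was at 8.67, with the nearest control at 8.86 and the highest at 8.91. Control 3 is also one of the 2 arrays with low choroid plexus markers. The cause of either value was not tested.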

How the results depend on the processing

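The median difference of the members stayed above 0 in every setting tried, from 0.07 with the ependymal score as covariate to 0.13 without control 1, and no difference that was past the threshold changed direction. Counts of genes past the threshold depended on the arrays. Leaving out each array in turn gave 0 to 3 members, 0 to 6 pathway genes, and 5 to 217 higher and 0 to 67 lower genes overall. Replicate numbers did not pair the samples (correlations of same-numbered deviations from -0.34 to 0.12), and the replicate block gave 0 members, 0 pathway genes, and 4 higher and 0 lower genes overall. Leaving out control 2 and 3 together gave 0 members, 0 pathway genes, and 5 higher and 0 lower genes. The choroid plexus score gave 0 members, 0 pathway genes, and 6 higher and 1 lower gene. The habenula score gave 0, 0, 1 and 0 in the same order, and the ependymal score 0, 0, 0 and 0 (both added after the data were seen). The astrocyte score gave 6 members and 253 higher and 57 lower genes, array weights gave 4 members and 213 higher and 67 lower genes, and a second quantile normalization gave 1 member, Hadh. Centring gave 17 lower genes. FCROS gave 8 members, 12 higher and 1 lower pathway gene, and 678 higher and 397 lower genes. The cause of these changes was not tested. With both probe sets averaged, Etfbkmt differed by 0.20 and missed the threshold.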

Other observations

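The 5 genes whose signals followed Bdh2 most closely over the 10 arrays, after each group was centred on its mean, were Lrrc51 (r = 0.961), Pm20d1 (0.925), H2az2 (0.909), Tmem212 (0.903) and Mdk (0.901). Their own differences between Dp1Rhr and control were 0.43, 0.41, 0.11, 0.38 and 0.42 on the log2 scale. Tmem212 is one of the ependymal markers. Among the members, the closest to Bdh2 were Echs1 (0.683) and Hadh (0.679). These correlations are descriptions over arrays that all genes share, and they carry no test.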
